A study of Mus musculus with 6 samples.

Results

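The genes described here are 31 genes of sterol synthesis, uptake and efflux in CD4+ T cells without miPEP31, a small peptide read from the precursor RNA of miR-31. They were listed by symbol for their roles, with earlier results of these data known, and all 31 were found by Ensembl gene ID among the 14387 rows that were tested. RNA was sequenced from 3 libraries of miPEP31-/- mice (miPEP31 KO) and 3 libraries of wild-type mice (WT). The animals of both groups were 8-week-old C57BL/6 mice, and their splenic CD4+ T cells were grown in serum-containing medium under anti-CD3 and anti-CD28 stimulation lasting 48 hours. The labels do not say how the deletion was made, in which cells it was present, or how many mice gave each library, so p-values measure only the spread between these libraries, which may be technical.

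Cholesterol is built from acetyl-CoA through mevalonate, farnesyl diphosphate, squalene and lanosterol. The pathway is switched on by SREBP transcription factors, which the escort protein SCAP carries from the endoplasmic reticulum when sterols are scarce and which INSIG proteins hold back when sterols are plentiful. LXR receptors answer to oxysterols, which are oxidised forms of cholesterol, and turn on export through ABC transporters. T cells that are driven to divide need sterols for new membranes, and macrophages and other cells exposed to interferon make oxysterols through the enzyme encoded by Ch25h.

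Library totals ran from 22865487 to 26295776 counts, levels are given as CPM, which are counts divided by the TMM-scaled library size and brought to a common total of 1000000, and KO and WT replicates are given in the order 1, 2 and 3. The deletion could not be checked here, because Mir31 was at 0 counts in each of the 6 libraries. Markers of CD4 T cells were present in every library. Cd3d, Cd3e, Cd3g, Trac and Cd4 summed to 836 to 883 CPM in KO and 1120 to 1220 CPM in WT. All 5 were lower in KO (edgeR adjusted p under 0.05), as were 22.2% of all tested rows. The KO libraries differed more among themselves than the WT libraries did: the second principal component (10.4% of the variance) ran from -35.5 to 31.8 in KO and from 1.22 to 3.92 in WT.

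In KO cells 6 of the 18 synthesis enzymes and the carrier gene Stard4 were lower, 1 synthesis enzyme, Ebp, was higher and 11 did not pass, while all 4 efflux and LXR genes were higher. Of the 31 genes, 7 were higher and 8 lower in KO (edgeR quasi-likelihood test, Benjamini-Hochberg adjusted p under 0.05), and 16 did not pass. The 7 include Ch25h, which passed the filter on low counts only through the KO group. When 1 CPM was required in 3 libraries, Ch25h was not tested and 6 members were higher. Of all 14387 tested rows, 47.3% passed, 25.1% as higher and 22.2% as lower, so the total of 15 of 31 lay near the background. Every KO library lay above every WT library for 7 members and below for 10, against 59.1% of all tested rows in either direction (30.6% above and 28.4% below). The synthesis enzymes that fell were 4 of the 7 in the mevalonate arm and 2 of the 11 in the sterol arm, Stard4 fell furthest, and Ch25h rose. The median log2 fold change was -0.30 for the 7 genes of the mevalonate arm, 0.01 for the 11 genes of the squalene and sterol arm, -0.04 for 5 SREBP control genes and 0.96 for the 4 efflux and LXR genes, against 0.01 over all tested rows. In bulk RNA, fewer cells of a type and less RNA per cell cannot be told apart.

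**Figure D1:**
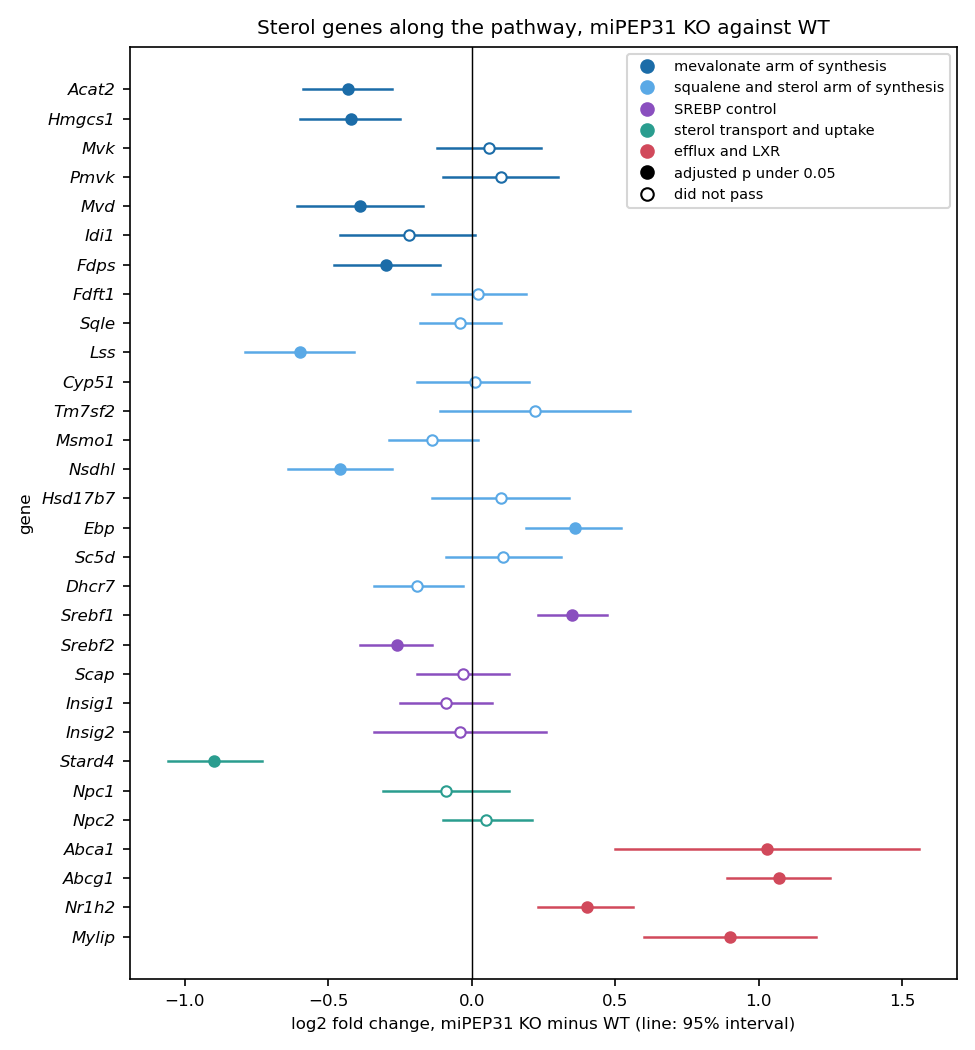
Log2 fold change (miPEP31 KO minus WT) of 30 sterol genes in pathway order, with the 95% interval of the edgeR fit as a line; filled points had an adjusted p under 0.05 and open points did not. The 4 efflux and LXR genes lie between 0.40 and 1.07, Stard4 lies at -0.90, and 18 synthesis enzymes lie between -0.60 and 0.36; Ch25h is left out because WT held 1 count.

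The promoters of 5 of these genes are shown because the members differ in the short motifs they hold. Sequences are RefSeq promoters (GRCm38.p6) of 300 bases, from 250 before to 50 after the annotated start, on the gene's strand and written 5′ to 3′, with motif matches in capitals. Hmgcs1 (chr13:119690101-119690400, + strand), an early synthesis gene that fell, was added after its match was seen. Tm7sf2 and Insig1 were also chosen by the rule for printing promoters but are not shown. Lss (chr10:76531355-76531654, + strand) and Acat2 (chr17:12960676-12960975, - strand) were the synthesis genes with the smallest p among those that fell, Ebp (chrX:8193463-8193762, - strand) was the synthesis gene that rose, and Ch25h (chr19:34475099-34475398, - strand) had the largest difference.
Hmgcs1: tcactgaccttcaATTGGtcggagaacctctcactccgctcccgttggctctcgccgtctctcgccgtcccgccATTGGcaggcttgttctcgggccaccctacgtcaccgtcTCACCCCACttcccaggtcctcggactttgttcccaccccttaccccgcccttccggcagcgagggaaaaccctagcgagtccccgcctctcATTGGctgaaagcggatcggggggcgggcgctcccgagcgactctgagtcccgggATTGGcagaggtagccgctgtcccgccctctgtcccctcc
Lss: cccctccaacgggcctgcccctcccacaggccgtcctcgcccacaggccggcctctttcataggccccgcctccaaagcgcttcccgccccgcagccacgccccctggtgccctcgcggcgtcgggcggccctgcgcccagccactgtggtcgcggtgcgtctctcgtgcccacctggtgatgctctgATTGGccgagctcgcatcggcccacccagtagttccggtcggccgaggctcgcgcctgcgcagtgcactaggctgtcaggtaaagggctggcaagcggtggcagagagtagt
Acat2: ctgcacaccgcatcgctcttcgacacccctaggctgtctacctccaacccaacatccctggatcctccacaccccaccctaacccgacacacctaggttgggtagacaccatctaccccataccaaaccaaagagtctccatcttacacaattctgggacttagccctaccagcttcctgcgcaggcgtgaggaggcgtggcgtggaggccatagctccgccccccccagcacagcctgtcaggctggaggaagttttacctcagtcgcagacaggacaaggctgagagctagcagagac
Ebp: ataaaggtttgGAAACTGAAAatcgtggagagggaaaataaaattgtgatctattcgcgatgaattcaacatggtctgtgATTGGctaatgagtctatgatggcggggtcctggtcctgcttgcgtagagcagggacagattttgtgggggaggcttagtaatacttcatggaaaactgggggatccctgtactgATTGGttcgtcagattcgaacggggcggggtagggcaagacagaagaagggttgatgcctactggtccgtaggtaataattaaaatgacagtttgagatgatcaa
Ch25h: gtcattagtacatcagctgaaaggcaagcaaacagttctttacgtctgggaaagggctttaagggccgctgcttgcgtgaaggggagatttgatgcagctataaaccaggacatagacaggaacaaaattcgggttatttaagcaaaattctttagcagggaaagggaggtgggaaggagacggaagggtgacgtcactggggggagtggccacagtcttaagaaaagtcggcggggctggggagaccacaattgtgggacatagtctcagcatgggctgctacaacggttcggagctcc

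For this, 3 motifs were searched on both strands in the first listed promoter of each gene, 25 members among 27025 genes, and no matches overlapped each other. TCACNCCAC, a form of the sterol regulatory element that SREBPs bind, was present in 330 of the 27025 promoters (1.22%) and in 1 member, Hmgcs1, from position -137 (counted from the start, with no position 0). CCAAT, or ATTGG on the other strand, is bound by NF-Y, a factor that works beside SREBPs at many sterol genes. It was present in 10248 promoters (37.9%) and in 19 of the 25 member promoters, 13 of them among 15 synthesis genes. Hmgcs1 held 4 matches to it, Ebp held 2 and Lss held 1, whereas Acat2 and Ch25h held none. GAAA followed after any 2 bases by GAAA again, a form of the interferon-stimulated response element, was present in 943 promoters (3.49%) and in 1 member, Ebp, from position -239. CCAAT boxes stood in promoters of genes that fell (Lss, Mvd and Nsdhl), of genes that rose (Ebp and Mylip) and of genes that did not pass (Cyp51, Idi1 and Mvk). Tm7sf2 and Insig1, whose promoters are not shown, held CCAAT and neither of the other motifs. A match is a description of letters and not of binding.

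The mevalonate arm makes the isoprenoid units from which squalene is assembled. In KO cells 4 of its 7 genes fell, 0 rose and 3 did not pass, beside 22.2% lower and 25.1% higher among all tested rows. Hmgcs1, the synthase of hydroxymethylglutaryl-CoA, had 236, 207 and 233 CPM in KO libraries, against 325, 292 and 289 CPM in WT libraries. Every KO library was below every WT library, and the log2 fold change was -0.42 (SE 0.08, edgeR adjusted p = 0.00273). Acat2, the cytosolic thiolase that starts the pathway, had 76.4, 73.0 and 76.6 CPM in KO, against 103, 94.8 and 108 CPM in WT. Its groups did not overlap either, with a log2 fold change of -0.43 (edgeR adjusted p = 0.00125, SE 0.07). Its paralog Acat3 had only 9 to 22 counts in KO libraries and 16 to 27 in WT libraries.

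Later steps of the mevalonate arm held the other genes that fell, Mvd and Fdps. Mvd, which decarboxylates mevalonate diphosphate, had 42.7, 48.4 and 55.8 CPM in KO, against 66.6, 62.1 and 63.6 CPM in WT. KO replicate 1 was the lowest and KO replicate 3 the nearest to WT, and the log2 fold change was -0.39 (SE 0.10, edgeR adjusted p = 0.0120). Fdps, the farnesyl diphosphate synthase, had 187, 192 and 223 CPM in KO and 250, 233 and 255 CPM in WT, without overlap. Its log2 fold change was -0.30 (SE 0.08, edgeR adjusted p = 0.0167). Both calls were lost in some fits without 1 library, although the log2 fold changes moved little in those fits. Without KO replicate 2 the edgeR adjusted p was 0.0512 for Mvd and 0.0710 for Fdps, at log2 fold changes of -0.39 and -0.28. Leaving out WT replicate 1 or 3 gave an edgeR adjusted p of 0.0590 or 0.0638 for Fdps, at -0.29 or -0.27. Idi1, the isomerase of isopentenyl diphosphate, had 219, 169 and 173 CPM in KO, against 224, 208 and 223 CPM in WT, and did not pass (log2 fold change -0.22, 95% interval -0.46 to 0.01). Its paralog Idi2 had 3 to 5 counts in KO and 14 to 25 in WT. KO replicate 1 alone lay within the WT range, and without it the Idi1 log2 fold change was -0.36 (edgeR adjusted p = 0.00124). The kinase genes Mvk and Pmvk did not pass, at 21.1 ± 0.936 and 50.4 ± 4.74 CPM in KO, against 20.3 ± 0.756 and 47.0 ± 3.30 CPM in WT (SD, n = 3). Their 95% intervals of -0.12 to 0.24 and -0.10 to 0.30 lie above the log2 fold changes of Acat2 and Hmgcs1.

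Of the 11 genes that turn farnesyl diphosphate into cholesterol, 2 fell, 1 rose and 8 did not pass. Neither share exceeded that of all tested rows, of which 22.2% fell and 25.1% rose. Lss, the lanosterol synthase that closes the sterol rings, had 100, 111 and 123 CPM in KO, against 171, 161 and 174 CPM in WT. It was the synthesis gene with the largest fall, at a log2 fold change of -0.60 (edgeR adjusted p = 0.000758, SE 0.08). A gene on the other strand that shares exon bases with Lss, 4930483K19Rik, had at most 9 counts in any library. Nsdhl, a sterol dehydrogenase that removes methyl groups from lanosterol derivatives, had 32.0, 34.5 and 36.5 CPM in KO and 50.5, 45.1 and 45.8 CPM in WT. Its KO libraries were all lower, with a log2 fold change of -0.46 (edgeR adjusted p = 0.00221, SE 0.08). Ebp, the isomerase that moves a ring double bond after these steps, went the other way, with 37.4, 38.6 and 41.3 CPM in KO, against 30.6, 29.4 and 31.5 CPM in WT. Its groups did not overlap, and the log2 fold change was 0.36 (SE 0.07, edgeR adjusted p = 0.00427).

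The genes on either side of Lss showed no such fall. Fdft1, the squalene synthase, had 99.7 ± 7.49 CPM in KO and 98.0 ± 3.95 CPM in WT (SD, n = 3), with a 95% interval of the log2 fold change of -0.14 to 0.19. Ctsb, which shares exon bases with Fdft1 on the other strand, had 5662 to 6178 counts in KO and 3675 to 3860 in WT, and reads of the pair cannot be told apart without strand. Sqle, the squalene epoxidase and a slow step of the pathway, had 112 ± 2.84 CPM in KO and 115 ± 5.89 CPM in WT (interval -0.18 to 0.10). Cyp51, the demethylase that follows Lss, had 237 ± 27.1 CPM in KO and 236 ± 7.08 CPM in WT (interval -0.19 to 0.20), although it shares exon bases with Akap9 on the other strand. For these 3 genes the interval lies above the log2 fold change of Lss. The sign of these 3 differences depended on the scaling.

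Among the late reductases and oxidases, differences stayed small. Dhcr7, the reductase of the last step, had 61.4, 61.0 and 66.5 CPM in KO, against 75.1, 67.8 and 72.0 CPM in WT. Its groups did not overlap, but it missed the threshold (log2 fold change -0.19, SE 0.07, edgeR adjusted p = 0.0518) and passed with 6 of 15 alternatives. Msmo1, a methylsterol oxidase, had 94.0, 88.5 and 100 CPM in KO and 107, 100 and 103 CPM in WT, with every KO library just below WT, and did not pass (log2 fold change -0.14, 95% interval -0.29 to 0.02). Tm7sf2, Hsd17b7 and Sc5d, a reductase, a ketoreductase and a desaturase of the sterol ring, had log2 fold changes of 0.22, 0.10 and 0.11, with 95% intervals of -0.11 to 0.55, -0.14 to 0.34 and -0.09 to 0.31. None of these 3 passed, and in each the KO libraries overlapped the WT libraries. Tm7sf2 shares exon bases with Vps51 on the same strand, which had 954 to 1212 counts in KO and 1045 to 1091 in WT.

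Per kilobase of transcript, Fdps was the most abundant synthesis gene, at 145 ± 14.1 CPM per kilobase in KO and 178 ± 8.36 in WT (SD, n = 3), and Hsd17b7 the least, at 5.37 ± 0.455 in KO and 5.01 ± 0.526 in WT. Hmgcs1 (65.1 ± 4.60), Idi1 (61.8 ± 9.31) and Cyp51 (60.3 ± 6.88) followed Fdps in KO and did not differ from each other beyond their spread. In WT the same 3 genes stood at 87.3 ± 5.81, 72.1 ± 2.91 and 60.0 ± 1.80 CPM per kilobase, further apart than their SDs. The summed level of the 18 synthesis genes was 1760, 1630 and 1740 CPM in KO and 2040, 1880 and 1990 CPM in WT, so the sums did not overlap. Their median log2 fold change was -0.09, with 10 genes below 0 and 8 above it.

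**Figure D2:**
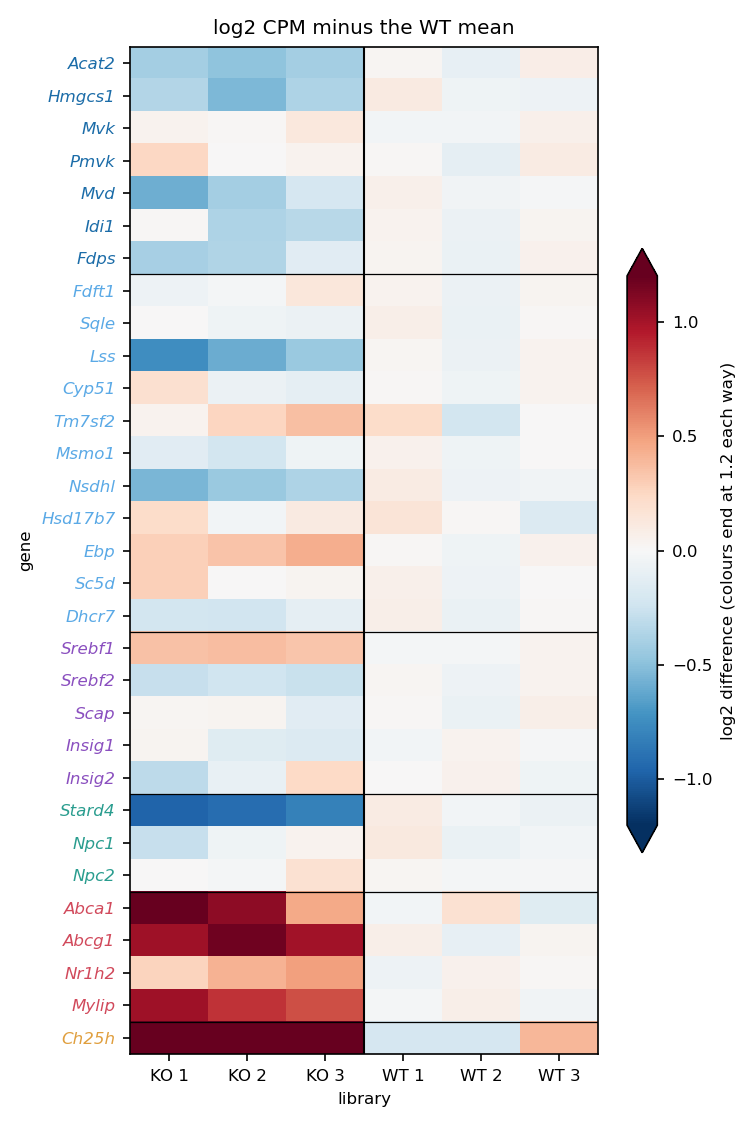
Difference in log2 CPM between each library (columns, KO left of WT) and the WT mean, for the 31 sterol genes (rows, in pathway order and coloured by role, lines between roles). Blue cells of Acat2, Hmgcs1, Mvd, Fdps, Lss, Nsdhl, Srebf2 and Stard4 and red cells of Ebp, Srebf1, the efflux genes and Ch25h run through all 3 KO libraries, while most other rows stay pale.

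The SREBP genes themselves moved in opposite directions. Srebf1, whose proteins favour fatty acid synthesis, had 249, 252 and 246 CPM in KO, against 193, 193 and 201 CPM in WT, a log2 fold change of 0.35 (edgeR adjusted p = 0.00124, SE 0.05). Srebf2, whose protein favours the sterol pathway, had 396, 408 and 399 CPM in KO, against 490, 462 and 494 CPM in WT, a log2 fold change of -0.26 (edgeR adjusted p = 0.00505, SE 0.05). Neither gene's groups overlapped. Within a library the ratio of Srebf2 to Srebf1 counts was 1.59, 1.62 and 1.62 in KO and 2.53, 2.39 and 2.45 in WT, a ratio that needs no scaling between libraries. A two-sided exact permutation test gave p = 0.1, the smallest that 3 against 3 libraries allow. Counts per gene do not separate the transcripts of Srebf1, and Rai1 on the other strand shares exon bases with it, at 2024 to 2891 counts in KO and 2259 to 2544 in WT.

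The genes that sense sterols for the SREBPs did not pass the test. Scap, the escort, had 86.2 ± 5.49 CPM in KO and 87.9 ± 4.42 CPM in WT (SD, n = 3, 95% interval of the log2 fold change -0.19 to 0.13). Insig1, a retention factor and itself a target of SREBPs, had 147, 130 and 129 CPM in KO, against 141, 148 and 144 CPM in WT (log2 fold change -0.09, interval -0.25 to 0.07). KO replicate 1 lay within the WT range and the other KO libraries below it, and leaving out KO replicate 1 gave -0.16 (edgeR adjusted p = 0.0464). Insig2, its paralog, had 26.7, 31.3 and 39.3 CPM in KO and 33.3, 34.5 and 32.1 CPM in WT, so the KO libraries spread to both sides of WT. The ratio of Insig1 to Insig2 counts was 5.51, 4.16 and 3.29 in KO, against 4.24, 4.30 and 4.48 in WT (two-sided exact permutation p = 0.7).

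Stard4, a cytosolic carrier that moves sterol between membranes and is induced by SREBP2, was the gene that fell furthest. It had 123, 128 and 137 CPM in KO, against 257, 235 and 229 CPM in WT, which was 1.86-fold higher in WT on the fitted scale. The log2 fold change was -0.90 (SE 0.07, edgeR adjusted p = 5.83e-05), and the spread within each group was small beside it. By contrast, the lysosomal proteins that release cholesterol taken up with lipoproteins showed no difference that passed. Npc1, the membrane transporter of that pair, had 59.8 ± 6.63 CPM in KO and 63.8 ± 4.63 CPM in WT (SD, n = 3, 95% interval of the log2 fold change -0.31 to 0.13). Npc2, its soluble partner, had 448 ± 34.1 CPM in KO and 431 ± 5.84 CPM in WT (interval -0.10 to 0.21). Npc1 shares exon bases with Rmc1 on the other strand, which had 1201 to 1431 counts in KO and 1192 to 1305 in WT. Both intervals lie above the log2 fold change of Stard4.

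All 4 efflux and LXR genes rose: Abcg1 (chr17:31057675-31117988), Abca1 (chr4:53030787-53159895), Mylip (chr13:45389742-45412022) and Nr1h2 (chr7:44549616-44553951, all GRCm38). Abcg1, a transporter that hands cholesterol to lipoproteins, had 49.9, 55.5 and 49.7 CPM in KO, against 25.8, 23.0 and 25.1 CPM in WT. It was 2.10-fold higher, with a log2 fold change of 1.07 (edgeR adjusted p = 4.54e-05, SE 0.08). Abca1, the transporter that loads lipid onto apolipoproteins, had 20.9, 16.6 and 10.8 CPM in KO and 7.71, 8.91 and 7.05 CPM in WT. Its KO libraries differed widely but all exceeded WT (log2 fold change 1.03, SE 0.23, edgeR adjusted p = 0.00727). Mylip encodes a ubiquitin ligase, induced by LXRs, that sends lipoprotein receptors to degradation. It had 9.53, 8.64 and 8.00 CPM in KO, against 4.59, 4.90 and 4.53 CPM in WT, a log2 fold change of 0.90 (edgeR adjusted p = 0.00100, SE 0.13). Nr1h2, the gene of the receptor LXR beta, had 98.5, 109 and 115 CPM in KO, against 78.3, 84.4 and 82.5 CPM in WT, and rose less, by 0.40 (SE 0.07, edgeR adjusted p = 0.00303). For these 4 genes the lowest KO library lay above the highest WT library, as in 30.6% of all tested rows.

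Transcripts of both transporters were less abundant than those of Nr1h2 in both groups. Per kilobase of transcript, Abcg1 stood at 8.87 ± 0.557 CPM in KO and 4.22 ± 0.254 in WT, and Abca1 at 1.57 ± 0.495 in KO and 0.769 ± 0.0919 in WT (SD, n = 3). Mylip stood at 2.85 ± 0.251 in KO and 1.52 ± 0.0649 in WT, and Nr1h2, the regulator, at 53.8 ± 4.16 in KO and 40.9 ± 1.55 in WT. Macrophages express several of these genes, so the markers of other cells are given beside them. Of 8 macrophage or monocyte markers only 4 could be tested, of which 2 were higher and 1 lower. Among all tested rows 25.1% were higher and 22.2% lower. The 8 summed to 94.1 to 127 CPM in KO and 39.7 to 51.4 CPM in WT (two-sided exact permutation p = 0.1, the smallest possible). The defining marker Adgre1 had 0 counts in every library, and Csf1r stood at 0.0698 ± 0.0514 CPM in KO and 0.0856 ± 0.0416 CPM in WT. Lyz2, which was not tested, had 5, 7 and 10 counts in KO, against 0, 0 and 1 in WT. Itgam, the marker that was lower, had 0, 2 and 8 counts in KO, against 22, 15 and 11 in WT. Without Mpeg1 and Ctss, 2 genes chosen after their values were seen, the sum was 3.15 to 6.06 CPM in KO and 4.74 to 8.71 CPM in WT.

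The 7 dendritic cell markers summed to 111 to 128 CPM in KO and 22.7 to 28.3 CPM in WT. Of the 4 that could be tested 2 were higher, and Clec9a was at 0 in every library. Without Batf3, also chosen after its values were seen, the dendritic cell markers summed to 12.0 to 13.1 CPM in KO and 6.25 to 7.58 CPM in WT. B cell markers summed to 55.1 to 109 CPM in KO and 50.9 to 70.9 CPM in WT, and 3 of 6 were higher. Of the 2 CD8 T cell markers, which summed to 15.9 to 36.9 CPM in KO and 12.5 to 15.8 CPM in WT, Cd8a was higher. The 4 NK cell markers summed to 60.9 to 169 CPM in KO and 45.8 to 89.2 CPM in WT, and the 2 that could be tested, Gzma and Klrb1c, did not pass (edgeR adjusted p = 0.143 and 0.286). These counts of higher markers stand beside 25.1% of all tested rows that were higher. The part of other cells in the efflux result was not tested.

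Ch25h, which encodes the hydroxylase that makes an oxysterol from cholesterol and is induced by interferon, was detected mainly in KO. Its counts were 20, 25 and 10 in KO libraries, against 0, 0 and 1 in WT libraries. The 55 KO counts against 1 WT count gave a rate 52.3-fold higher in KO, with an exact 95% counting interval of 9.01 to 2100 that covers counting error only. Ch25h passed the filter on low counts only through the KO group, where it is high, so its edgeR adjusted p of 0.00128 is given as a description. Its fitted log2 fold change of 5.26 depends on the prior count and was 7.17 without WT replicate 3, which held the single WT count. The level was low even in KO, at 0.863, 0.931 and 0.430 CPM. Gm26902 on the other strand shares exon bases with Ch25h and had 10, 12 and 18 counts in KO, against 9, 3 and 3 in WT, so reads of the 2 genes cannot be told apart without strand. The part of Gm26902 reads in the Ch25h counts was not tested.

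**Figure D3:**
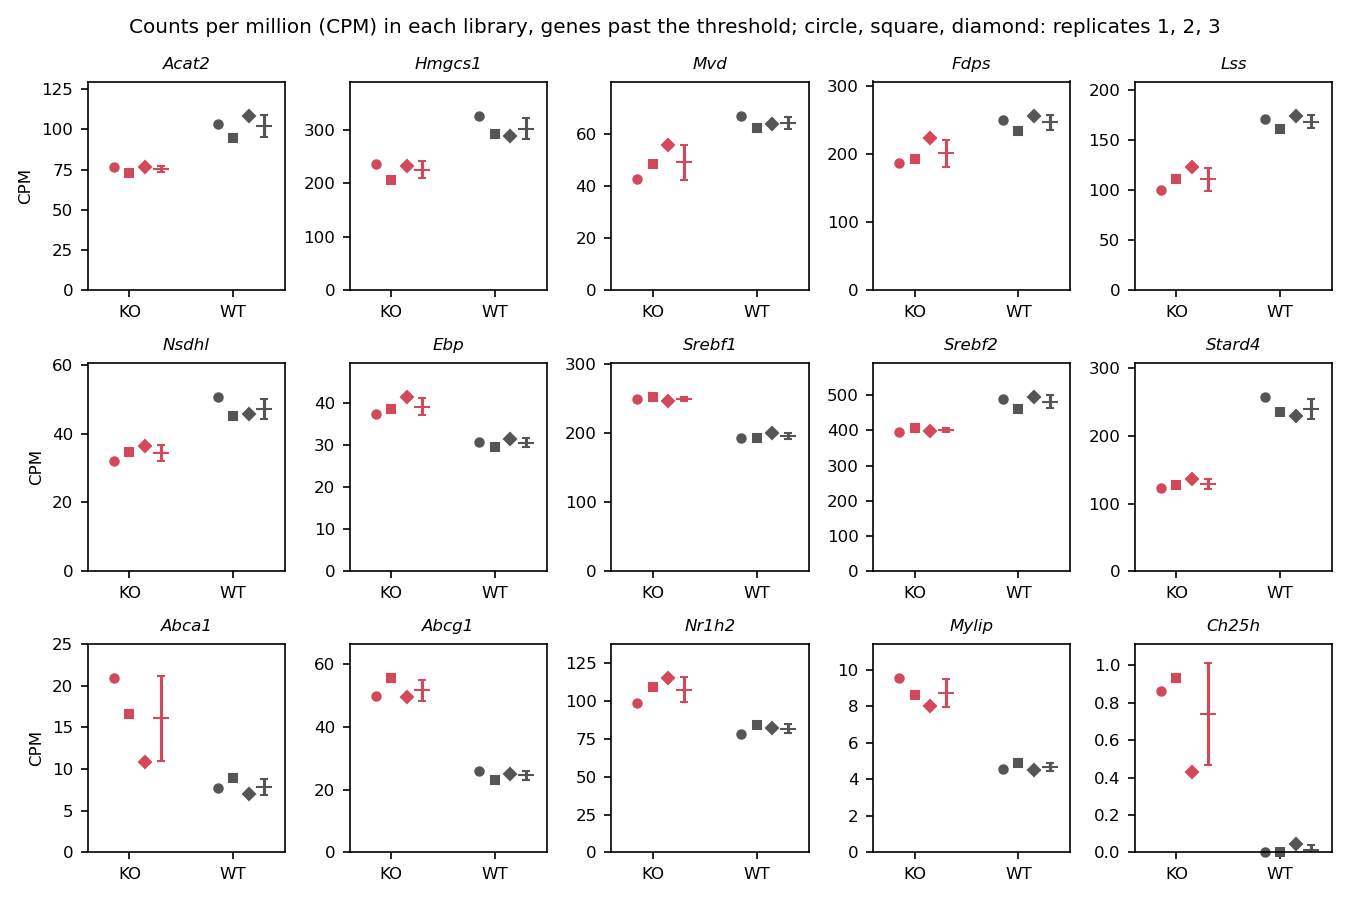
CPM in each library for the 15 sterol genes past the threshold, KO left of WT, with circles, squares and diamonds for replicates 1, 2 and 3 and a bar for the mean ± SD of each group. In every panel the 3 KO libraries lie on 1 side of the 3 WT libraries, as in 59.1% of all tested rows. The genes shown were chosen by the test on these same values, so the separation adds no support to it. The KO points of Abca1 run from 10.8 to 20.9 CPM.

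The KO libraries also differed in their interferon response, which is given here because Ch25h belongs to it. As differences from the mean of WT, 12 type I interferon response genes had medians of 6.20, 5.45 and 4.68 on the log2 scale in KO replicates 1, 2 and 3, against -0.03, -0.06 and 0.02 in the WT libraries. All 12 were higher in KO, beside 25.1% of all tested rows. The 3 with the smallest p were Irf7, Irf9 and Stat2, at log2 fold changes of 6.31, 2.06 and 1.87. Of the 8 sterol genes that fell, 6 (Mvd, Fdps, Lss, Nsdhl, Srebf2 and Stard4) were lowest in KO replicate 1 and 2 (Acat2 and Hmgcs1) in KO replicate 2, so 0 were lowest in KO replicate 3. For Srebf2 the lead was slight, at 396 CPM in KO replicate 1 and 399 CPM in KO replicate 3. The 18 synthesis enzymes as a set did not follow this order. Their medians against the WT mean were -0.03, -0.15 and -0.09 in KO replicates 1, 2 and 3. Over all tested rows, too, KO replicate 1 lay furthest from WT. The first principal component (74.9% of the variance) was 64.1, 50.6 and 42 in KO replicates 1, 2 and 3. In WT it was -54.6, -52.8 and -49.3. How often KO replicate 1 was lowest among all rows that fell was not counted. Among the sterol genes that rose, Abca1 and Mylip were highest in KO replicate 1, Srebf1, Abcg1 and Ch25h in KO replicate 2, and Ebp and Nr1h2 in KO replicate 3. Of 10 G2/M genes, which mark cell division, 7 were lower in KO, beside 22.2% of all tested rows. The 10 had a median log2 fold change of -0.40. Their summed levels were 2480, 2220 and 2070 CPM in KO, against 2750, 2950 and 3010 CPM in WT. The 3 with the smallest p were Ttk, Aurkb and Cenpa, at -1.10, -0.60 and -0.70. The part of interferon and of division in the sterol results was not tested.

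Beyond the 31 genes, 76 other genes of lipid and sterol handling were listed and 74 could be tested, of which 26 were higher and 16 lower, with a median log2 fold change of 0.14. Of all tested rows 25.1% were higher and 22.2% lower, and the share of listed genes that fell lay near this background. The lists do not hold every gene of the pathway. Among 8 cofactors and associated enzymes of synthesis 5 fell and 1 rose. Tmem97, a sterol-responsive membrane protein, had 52.5, 47.0 and 47.4 CPM in KO, against 73.6, 73.8 and 74.1 CPM in WT (log2 fold change -0.59, SE 0.06, edgeR adjusted p = 0.000254). Lpin1, a phosphatidate phosphatase, fell by 1.15 (SE 0.15), and Pgrmc1, a heme-binding membrane protein, rose by 0.76 (SE 0.10). Of 8 genes for SREBP proteases and sterol-regulated degradation at the endoplasmic reticulum, 4 rose and 1 fell. Erlin1, which binds cholesterol in that membrane, rose by 0.83 (SE 0.08), and Rnf139, a ubiquitin ligase gene, rose by 0.93 (SE 0.11). The protease genes Mbtps1 and Mbtps2 did not pass, at log2 fold changes of -0.08 and 0.01.

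Fatty acid genes went both ways, with 4 of 14 higher, 3 lower and 7 not passing. These counts lay near the shares of all tested rows, 25.1% higher and 22.2% lower. Elovl6, an elongase of saturated fatty acids, had 30.1, 33.7 and 37.8 CPM in KO, against 83.1, 83.9 and 83.2 CPM in WT (log2 fold change -1.30, SE 0.09, edgeR adjusted p = 2.73e-05). Fads2, a desaturase, rose by 0.78 (SE 0.09), and Acly, which supplies cytosolic acetyl-CoA, fell by 0.47 (SE 0.06). Fasn, the fatty acid synthase, had 460 ± 75.7 CPM in KO and 440 ± 38.5 CPM in WT and did not pass (log2 fold change 0.06, SE 0.12). In the isoprenoid branch, which uses farnesyl diphosphate outside sterols, 8 of 15 rose and 2 fell. Fnta and Icmt, which prenylate and methylate proteins, rose by 0.43 (SE 0.06) and 0.39 (SE 0.06), and Rabggta, a subunit of Rab geranylgeranyl transferase, fell by 0.72 (SE 0.09).

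Genes that store, free and move cholesterol were higher in 6 of 18 and lower in 4, beside 25.1% higher and 22.2% lower among all tested rows. The acyltransferases that make cholesterol esters moved in opposite directions. Soat1, which is among 30 genes the authors selected, had 46.3, 50.1 and 59.4 CPM in KO, against 102, 92.9 and 85.1 CPM in WT (log2 fold change -0.85, SE 0.11). Soat2 had 32.0, 39.2 and 41.5 CPM in KO, against 19.0, 18.5 and 18.3 CPM in WT (log2 fold change 1.02, SE 0.10). Stard3nl, a protein of contacts between late endosomes and the endoplasmic reticulum, rose by 1.07 (SE 0.08). Of 13 LXR partners, LXR targets and oxysterol genes, 11 could be tested and 3 rose and 1 fell. Smpdl3a, a phosphodiesterase induced by LXRs in human macrophages, rose by 0.99 (SE 0.15), Lpcat3, an LXR-induced phospholipid enzyme, rose by 0.34 (SE 0.06), and Rxrb, a partner receptor, fell by 0.26 (SE 0.08). Nr1h3, the gene of LXR alpha, had 10, 14 and 11 counts in KO, against 9, 10 and 7 in WT, and did not pass (log2 fold change 0.35, SE 0.35). Cyp7b1, which degrades oxysterols, had 0 counts in every library.

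**Figure D4:**
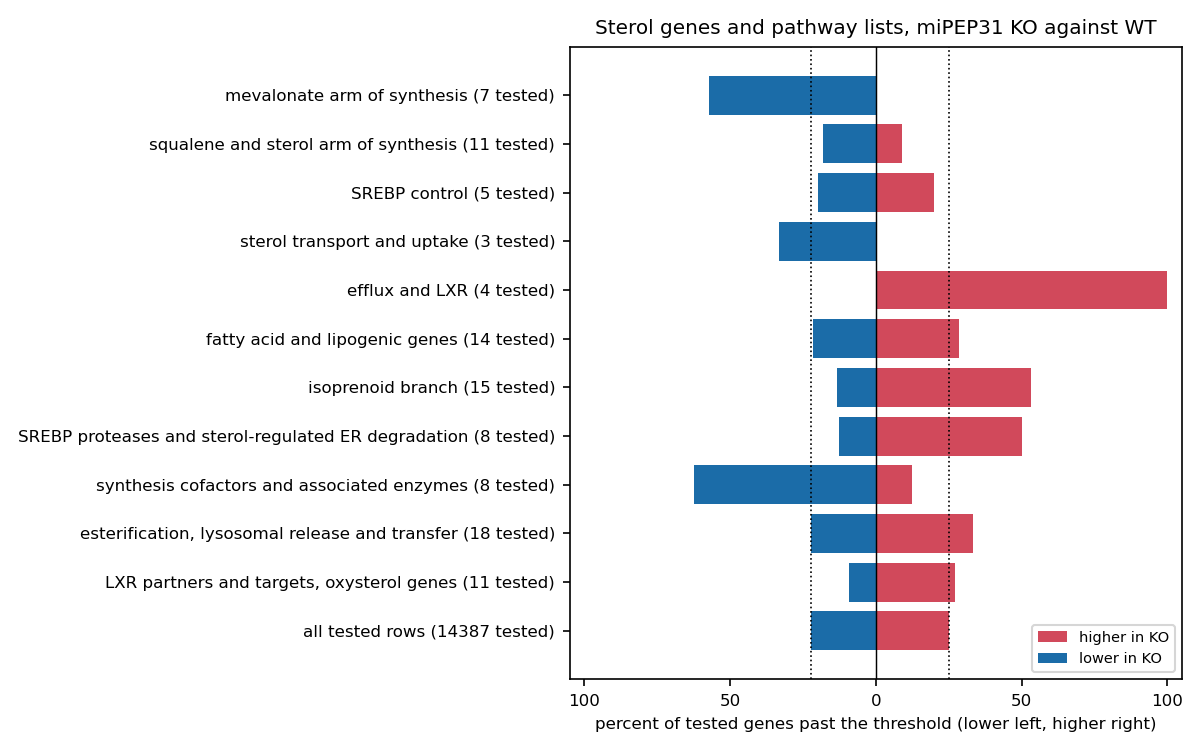
Percent of tested genes past the threshold in each group of sterol genes and each pathway list, lower in KO to the left of 0 and higher in KO to the right; dotted lines mark all tested rows at 22.2% lower and 25.1% higher. The mevalonate arm (4 of 7 lower) and the cofactors (5 of 8 lower) extend left, and the efflux and LXR genes (4 of 4 higher) extend right.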

How the data were processed

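RNA from 3 miPEP31 KO and 3 WT libraries of stimulated CD4+ T cells was analysed. RNA came from a Trizol extraction and was prepared with a TruSeq kit, per the labels' protocols. Bowtie 0.12.2 and build mm8 appear, without a role, in the submitters' processing notes; counting program, annotation and strand setting were not given in the sources used here. Estimated counts for 52856 rows were deposited by the authors (72.2% of values above 0 were whole), of which 944 had MSTRG IDs with no gene name and held 0.903% to 1.56% of a library's counts; they stayed in the tests. A second table of centred values for 30 genes held 0 of the 31 members and was not used.

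Counts were rounded to whole numbers, filtered with filterByExpr (minimum count of 10; 14387 rows left), scaled with TMM and tested with the quasi-likelihood test of edgeR 4.0.16 with robust estimation, no covariate and Benjamini-Hochberg adjustment over all rows, at adjusted p under 0.05. R 4.3.3, limma 3.58.1 and DESeq2 1.42.0 served alternatives, which changed the scaling, the filter on low counts, the test, the rows without gene names, the replicate block or left out 1 library at a time. SE is the unshrunk log2 fold change over the root of the F statistic. Symbols, positions and transcript lengths (longest APPRIS principal transcript) were looked up by gene ID in GENCODE M21 (GRCm38); 130 of 131 listed symbols matched. Heatmap and per-library medians used log2 CPM with a prior count of 2. The members and all lists were chosen with earlier results of these data known. All 31 members are named; of each list, up to 3 genes past the threshold by smallest p are named, and others singled out for their role were chosen after their values were seen. A gene that this rule names is not reported here. No libraries held equal counts.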

Additional observations from a re-analysis of the deposited data

How the results depend on the processing

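Of the 31 genes, 19 kept their direction and their side of the threshold under all 15 alternatives, among them 13 of the 15 genes that passed; for Ch25h these were 14 alternatives, since it was not tested when 1 CPM was required in 3 libraries. The exceptions among genes that passed were Mvd and Fdps, as given above. The members higher in KO numbered 7 in each fit without 1 library and 6 to 7 in the others, and those lower in KO numbered 6 to 10 and 8 to 9; synthesis enzymes lower in KO numbered 4 to 8 and 6 to 7. Without KO replicate 3, Msmo1 passed (log2 fold change -0.19, edgeR adjusted p = 0.0323). Signs turned only for genes that did not pass. Fdft1 stood at -0.01 with upper-quartile scaling. Sqle was at 0.01, Scap at 0.02 and Insig2 at 0.01 with plain library sizes. Cyp51 was at -0.01 with DESeq2-type size factors, without a low-count filter and in DESeq2, at -0.03 with upper-quartile scaling and at 0.00 with the filter of 1 CPM. With 1 library left out at a time, the ranges were -0.05 to 0.06 for Fdft1, -0.09 to 0.05 for Cyp51, -0.07 to 0.01 for Scap, -0.21 to 0.08 for Insig2 and -0.02 to 0.08 for Npc2. The cause was not tested. With the replicate number as a block, 7 members were higher and 8 lower, and 3049 and 2687 of all tested rows, against 3609 and 3197 without it. The numbers did not pair the libraries: same-numbered libraries had correlations of deviations of 0.00, -0.01 and -0.02. Scaling moved the median of all genes by at most 0.045 (log2).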
